A study of Mus musculus with 96 samples.

Results

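Translation initiation factor genes were described across 96 single cells of 2 mouse leukemias. The members were the genes whose symbol starts with Eif and whose mean over all cells was 1 TPM or more, apart from the sex-linked Eif2s3x and Eif2s3y. TPM is a transcript abundance scaled by transcript length and to a fixed total per cell. Of 53 rows with such a symbol, 50 were members, and the whole table held 23955 genes, of which 11015 had a mean of 1 TPM or more. The mean TPM chose the members, so it is given as a description. Just above the limit lay Eif2ak4 at 8.81, Eif2b5 at 12.2 and Eif4ebp2 at 14.5 TPM, and just below it Eif5a2 at 0.733, Eif3j1 at 0.000417 and Eif4e1b at 0 TPM. The left-out Eif2s3x averaged 69.4 TPM in mouse 2 and 160 TPM in mouse 1, and Eif2s3y 109 and 0.0396 TPM.

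The cells were spleen cells bead-selected for c-Kit, a growth factor receptor of blood progenitors, from mouse 2 and mouse 1, with 48 cells each. Both animals were moribund with acute myeloid leukemia and carried the same genotype, Flt3ITD/ITD;Dnmt3afl/- with MxCre. Flt3ITD is an internal tandem duplication of a receptor tyrosine kinase, present on both alleles, and Dnmt3a is a DNA methyltransferase with 1 floxed and 1 null allele. MxCre is a Cre transgene under the interferon-inducible Mx1 promoter, which is active in blood cells and in other tissues. No age was stated in the labels, and cells without these alleles were not analysed here. The protocols describe independent captures from each of which 48 cells were taken forward, without saying which mouse was in which. The column names of the TPM values carry 1 prefix for all cells of mouse 1 and another for all cells of mouse 2. The mice also differed in the Y-linked Eif2s3y, given above. Effects of capture, column prefix, sex and mouse therefore cannot be told apart. There was 1 animal on each side, so differences carry no test, no p-value and no standard error, and spreads are over the cells of 1 mouse.

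Initiation factors bring the ribosome to the start codon of an mRNA. The eIF2 complex carries the initiator tRNA to the small ribosomal subunit, eIF1, eIF1A and eIF5 govern start codon choice, and the many-subunit eIF3 scaffold holds the assembly together. The eIF4 factors bind the cap and unwind the mRNA, and eIF5B joins the large subunit. Cells regulate initiation at the protein level through eIF2 alpha kinases, the exchange factor eIF2B and the 4E-BP inhibitors of cap binding, and mRNA levels do not read that control.

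Each cell was placed in a state by 3 marker genes at 1000 TPM or more, taken in the order H2-Aa, S100a8 and Mpo, with the others called the rest. H2-Aa is an MHC class II gene of antigen-presenting cells, S100a8 a gene of maturing neutrophils, and Mpo encodes the myeloperoxidase of granulocyte-monocyte progenitors. Mouse 2 held 20 H2-Aa-high, 10 S100a8-high, 12 Mpo-high and 6 rest cells, and mouse 1 held 14, 1, 13 and 20. In mouse 2, 1 H2-Aa-high and 2 S100a8-high cells also reached 1000 TPM of Mpo, and so did the single S100a8-high cell of mouse 1, which is given by its values alone. The marker lists were summed without the gene that defines the state. The 6 other dendritic cell markers had a median sum of 59689 TPM in H2-Aa-high cells, against 39.5 TPM in the rest of mouse 2, and 58723 against 21.2 TPM in mouse 1. The 5 other neutrophil markers summed to between 9034 and 383654 TPM in the S100a8-high cells of mouse 2, against 2.9 to 208.92 TPM in the rest. The 3 other progenitor markers, Elane, Prtn3 and Ctsg, had median sums of 4881 TPM in Mpo-high cells, against 336 TPM in the rest of mouse 2, and 4193 against 442 TPM in mouse 1, where the ranges overlapped. Kit averaged 62.2 TPM in H2-Aa-high, 19.3 in S100a8-high, 119 in Mpo-high and 182 in rest cells of mouse 2, and 128, 93.5 and 189 in H2-Aa-high, Mpo-high and rest cells of mouse 1. Of the 4 T and NK cell markers, Cd3e was at 0 in every cell, but Nkg7, a gene of cytotoxic granules, averaged 1185 TPM. The list had median sums of 1442 TPM in Mpo-high and 1318 TPM in rest cells of mouse 2, and 2159 and 1659 TPM in those of mouse 1, against 3.4 and 1.61 TPM in the H2-Aa-high cells of mouse 2 and mouse 1. Of the 4 B cell markers, Ms4a1 was at 0 in every cell and Cd79a averaged 0.0292 TPM, while Cd79b averaged 80.9 TPM, and the highest sum in a cell was 1084 TPM. The 5 erythroid markers had median sums of 0.91 TPM in Mpo-high and 198 TPM in rest cells of mouse 2, and 5.77 and 708 TPM in those of mouse 1, mostly from Hbb-b2.

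The most abundant member was Eif5a, which encodes a hypusine-containing factor that helps the ribosome through difficult peptide bonds. It was detected in every cell, 48 of 48 in each mouse (100%, exact Clopper-Pearson 95% interval 92.6 to 100%, which covers the counting of cells only). Detection means a value of at least 1 TPM throughout. Its lowest, median and highest values were 1.93, 887 and 2913 TPM in mouse 2, against 102, 1384 and 3440 TPM in mouse 1. Eif1, which guards start codon choice, was the other member detected in 48 of 48 cells of both mice, with 33.9, 495 and 1975 TPM in mouse 2, against 66.1, 425 and 1233 TPM in mouse 1. These ranges overlapped almost wholly, and in neither mouse was Eif1 at 0. After Eif5a, at a mean of 1159 TPM over all cells, came 7 members of the top 10 by level that were eIF3 subunits or Eif1: Eif3e at 694, Eif3k at 604, Eif1 at 529, Eif3h at 446, Eif3i at 441, Eif3m at 378 and Eif3l at 371 TPM. The helicase genes Eif4a1, at 320 TPM, and Eif4a2, at 260 TPM, completed the 10. The spread over cells, an SD of 807 TPM in mouse 2 and 762 in mouse 1 for Eif5a, was wider than the steps between neighbours in this order.

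Grouped by role, the 13 eIF3 genes held 45.5% of the members' summed mean TPM, from Eif3b at 38.8 to Eif3e at 694 TPM. Both encode subunits of the same complex, and the mRNA levels of its subunits thus differed widely. Late steps, with Eif5a, Eif5b and the anti-association factor Eif6, held 14.7%, start codon selection 12.1%, and the helicases with their cofactors Eif4b and Eif4h 11.4%. Cap binding and scaffold genes held 6.22%. The ternary complex group held 4.4%, with the eIF2 subunit genes Eif2s1 and Eif2s2 beside Eif2a and Eif2d, which encode no eIF2 subunit. It was led by Eif2s1, the alpha subunit that the stress kinases phosphorylate, at 156 TPM. The regulators held the smallest shares: eIF2B held 2.65%, the 4E-BPs with the carrier Eif4enif1 1.96%, and the eIF2 alpha kinases 1.09%. Eif2ak3, the kinase of the unfolded protein response also called PERK, was detected in 6 of 48 cells of mouse 2 (12.5%, interval 4.73 to 25.2%) and 5 of 48 cells of mouse 1 (10.4%, 3.47 to 22.7%).

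**Figure D1:**
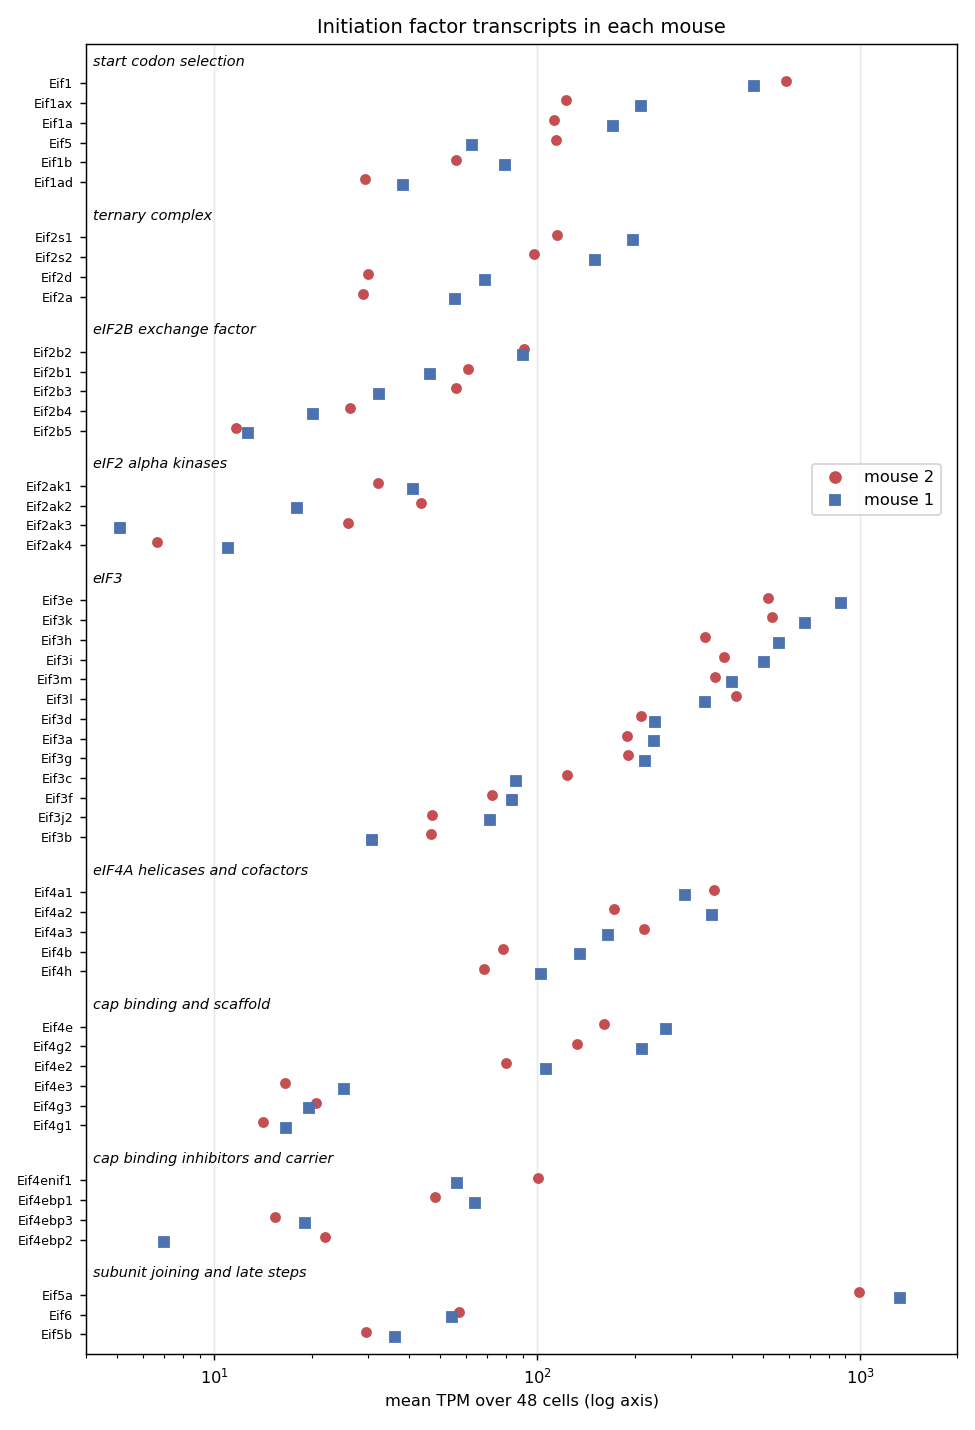
Mean TPM of the 50 initiation factor genes over the 48 cells of mouse 2 (circles) and of mouse 1 (squares) on a log axis, grouped by role. Eif5a lies highest, at 988 TPM in mouse 2 and 1330 TPM in mouse 1, the eIF3 genes spread from Eif3e down to Eif3b, and the lowest value is Eif2ak3 at 5.12 TPM in mouse 1.

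Several factors are encoded by paralogs, and 1 gene often held most of a family's TPM. Eif4g2, whose product DAP5 lacks the cap-binding-protein site of the eIF4G scaffold, held 79.2% of the summed eIF4G TPM in mouse 2 and 85.3% in mouse 1. The classical scaffold gene Eif4g1 held 8.44% and 6.77%, and Eif4g3 12.4% and 7.94%. Eif1 held 91.3% and 85.5% of its pair with Eif1b, and Eif5a2 held only 0.0230% and 0.0929% beside Eif5a. Eif4e, the cap-binding protein, held 62.5% and 65.6% of its family, ahead of Eif4e2 with 31.1% and 27.8% and Eif4e3 with 6.42% and 6.62%. Eif4ebp1 led the cap-binding inhibitors with 56.3% and 71.1%. The order of the other inhibitors differed, with Eif4ebp2 at 25.7% and Eif4ebp3 at 18% in mouse 2, against 7.74% and 21.2% in mouse 1. Eif1a held 48.0% and 45.2% beside its X-linked near-copy Eif1ax, and reads of these similar genes may have been divided between them in ways that could not be checked here.

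The eIF4A helicase, which unwinds the 5′ end of mRNAs, showed an order of paralogs that differed between the mice. Eif4a1 held 47.7%, Eif4a2 23.3% and Eif4a3, mainly a splicing-linked helicase of the exon junction complex, 29% in mouse 2. In mouse 1 Eif4a2 came first with 43.4%, against 35.9% for Eif4a1 and 20.7% for Eif4a3. Per cell, Eif4a2 had 0, 58.6 and 1104 TPM as its lowest, median and highest values in mouse 2, against 0, 305 and 960 TPM in mouse 1. Eif4a1 had 0, 346 and 986 TPM in mouse 2, against 4.61, 234 and 909 TPM in mouse 1, so the genes stood in opposite order by their medians. Both were detected together in 38 of 48 cells of mouse 2 and 43 of 48 cells of mouse 1. The share depended on state: Eif4a2 had 27.9% in H2-Aa-high, 17.4% in S100a8-high, 12.6% in Mpo-high and 38.4% in rest cells of mouse 2. In mouse 1 it had 52.6% in H2-Aa-high, 37.8% in Mpo-high and 41.3% in rest cells, so the rest cells of the mice were close while the Mpo-high and H2-Aa-high cells were not. As the mean of shares per cell, Eif4a1 led in mouse 1 as well, with 42.5% against 40.7% for Eif4a2, and had 52.3% against 22.5% in mouse 2.

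The start regions of Eif4a1 and Eif4a2 are shown as a description. They are reference sequences, the same for both mice, and do not address the difference in shares between the mice. The RefSeq promoter sequences (GRCm38.p6) run from 250 bases before to 50 bases after the annotated start, on the strand of the gene. Capitals mark CACGTG, the E-box letters bound by Myc and its relatives, which were in the window of Eif4a1 (chr11:69672374-69672673, minus strand) and not in that of Eif4a2 (chr16:23107218-23107517, plus strand).
Eif4a1: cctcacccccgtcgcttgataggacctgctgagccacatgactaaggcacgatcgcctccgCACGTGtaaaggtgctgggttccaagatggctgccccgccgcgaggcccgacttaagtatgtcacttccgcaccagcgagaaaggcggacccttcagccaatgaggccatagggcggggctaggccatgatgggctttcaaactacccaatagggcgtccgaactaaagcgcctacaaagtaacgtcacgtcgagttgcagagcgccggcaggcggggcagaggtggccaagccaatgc
Eif4a2: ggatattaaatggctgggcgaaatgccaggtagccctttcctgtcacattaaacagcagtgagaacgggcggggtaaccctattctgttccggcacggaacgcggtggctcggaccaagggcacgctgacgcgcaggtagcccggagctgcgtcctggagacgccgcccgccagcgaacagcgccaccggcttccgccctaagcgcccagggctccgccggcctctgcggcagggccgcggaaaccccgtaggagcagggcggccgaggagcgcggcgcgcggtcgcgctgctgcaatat
A promoter was matched for 39 of the 50 members. CACGTG, which reads the same on both strands, was in 9 of 39 (23.1%), against 8.09% of the 27025 genes with a promoter of the same length. The members with it were Eif1b, Eif3a, Eif3f, Eif3k, Eif4a1, Eif4e, Eif4g1, Eif4h and Eif5a. CCGGAAG, a core of ETS factor sites searched on both strands, was in 15 of 39 (38.5%), against 9.93% of all genes. By their letters the motifs cannot overlap each other, and Eif1b and Eif5a held both. A match is a description of letters in the window and not a binding site. The 27025 genes were not limited by their level in these cells, and no share among well-expressed genes was taken.

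**Figure D2:**
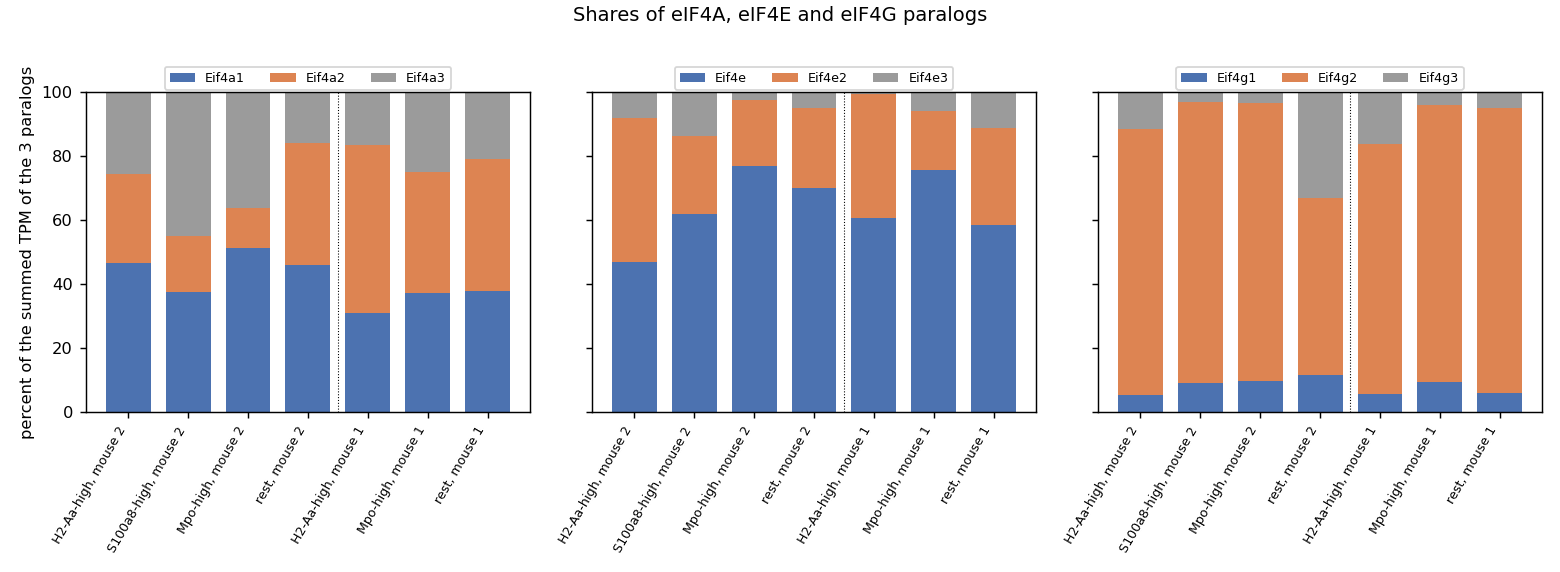
Percent of the summed TPM of 3 paralogs held by each gene, for eIF4A, eIF4E and eIF4G, in the cells of each state of mouse 2 (left of the dotted line) and mouse 1; the single S100a8-high cell of mouse 1 is not drawn. Eif4a2 takes 12.6% in Mpo-high cells of mouse 2 and 37.8% in those of mouse 1, while Eif4g2 leads the eIF4G family in every bar.

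The summed TPM of the 50 genes differed by state in each cell. In mouse 2 the lowest, median and highest sums were 4051, 6952 and 15638 TPM in H2-Aa-high cells, 1472, 2786 and 7952 in S100a8-high cells, 7300, 10318 and 12657 in Mpo-high cells, and 7501, 11765 and 12570 in rest cells. In mouse 1 they were 4798, 7389 and 11808 TPM in H2-Aa-high cells, 6074, 9582 and 12667 in Mpo-high cells, and 7046, 10136 and 14422 in rest cells. The single S100a8-high cell of mouse 1 had 8283 TPM. The order H2-Aa-high below Mpo-high below rest held by medians in both mice, and the ranges of H2-Aa-high and rest cells overlapped in both. S100a8-high cells of mouse 2 lay lowest, and 9 of their 10 sums were under the lowest rest cell of that mouse.

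TPM is a share of each cell's total, and a few genes took very different shares of it. The 10 most abundant genes of a cell took a median of 54.8% of its TPM in S100a8-high, 24.2% in H2-Aa-high, 9.18% in Mpo-high and 9.53% in rest cells of mouse 2, and 22.4% in H2-Aa-high, 8.93% in Mpo-high and 8.99% in rest cells of mouse 1. After the 100 genes most abundant over all cells, none of them a member, were left out and the rest rescaled to the same total, the median sums in mouse 2 were 12590 in H2-Aa-high, 6466 in S100a8-high, 15636 in Mpo-high and 17297 in rest cells. In mouse 1 they were 12842 in H2-Aa-high, 13433 in Mpo-high and 14432 in rest cells. S100a8-high cells thus stayed lowest on this scale, and the gap of H2-Aa-high cells to the rest narrowed.

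**Figure D3:**
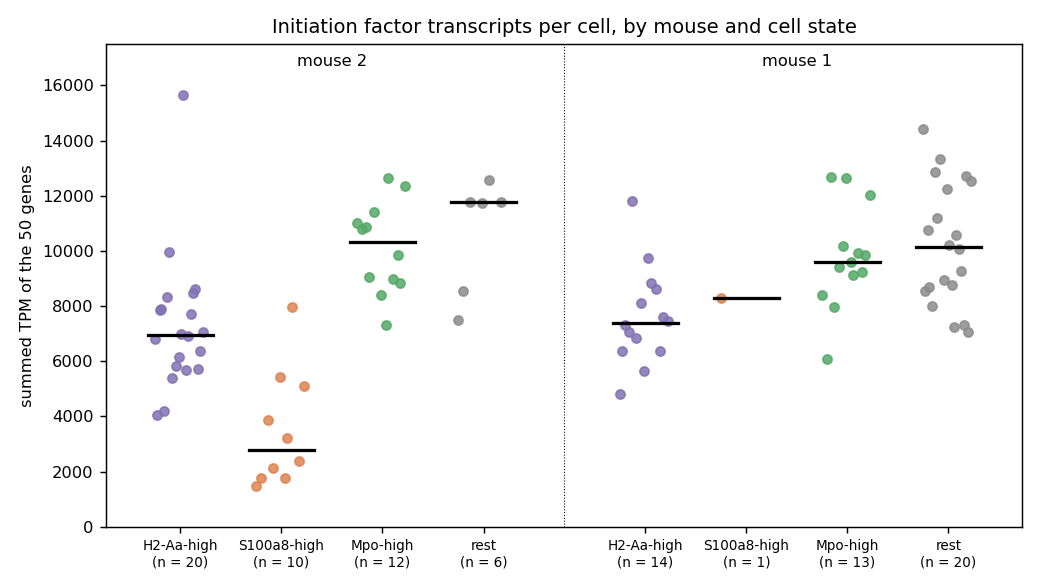
Summed TPM of the 50 initiation factor genes in each cell (points) by state, mouse 2 at left and mouse 1 at right, with the median of each group as a bar. The S100a8-high cells of mouse 2 lie lowest, with a median of 2786 TPM, against 11765 TPM in the rest of mouse 2.

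The number of members at 1 TPM or more followed the number of genes detected in a cell. It had medians of 26 in H2-Aa-high, 23 in S100a8-high, 35 in Mpo-high and 35.5 in rest cells of mouse 2, beside 2581, 2821, 4041 and 4251.5 genes detected. In mouse 1 the medians were 25 in H2-Aa-high, 40 in Mpo-high and 29.5 in rest cells, beside 2921.5, 4463 and 3587.5 genes. Spearman's rho between the 2 numbers was 0.89 over the 48 cells of mouse 2 and 0.90 over those of mouse 1, numbers that share a cell's depth and library. Members made up a median of 0.986% of the genes detected in H2-Aa-high, 0.762% in S100a8-high, 0.836% in Mpo-high and 0.842% in rest cells of mouse 2, and 0.890%, 0.818% and 0.803% in H2-Aa-high, Mpo-high and rest cells of mouse 1. By medians, this share was not lower in H2-Aa-high cells than in the rest of either mouse. Well-expressed genes such as most members can stay detected where weaker genes drop out, so the share cannot show whether members were fewer. Read depth per cell was not available from TPM, and fewer molecules per cell and shallower sequencing cannot be told apart.

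**Figure D4:**
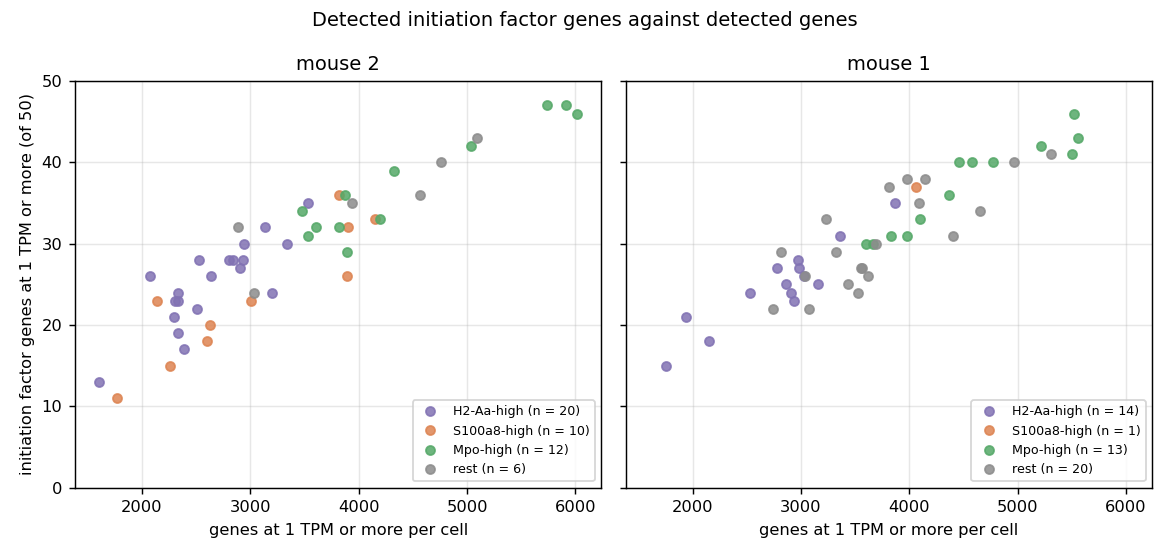
Initiation factor genes at 1 TPM or more (of 50) against all genes at 1 TPM or more, 1 point per cell, coloured by state, for mouse 2 (left) and mouse 1 (right). Cells with more genes detected have more members detected in both mice, and the H2-Aa-high cells, with medians of 2581 genes in mouse 2 and 2921.5 in mouse 1, lie at the low end of both axes.

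Initiation factor genes were mostly lower in H2-Aa-high cells than in the rest of the same mouse. Differences here are those of the mean of log2(TPM + 1) over cells, a scale that counts an undetected cell as 0, and 1 or more in size was the limit of a call. In mouse 2, 34 of 50 members were lower by 1 or more (38% of all 11015 genes were) and 2 higher (7.82%), with a median difference of -1.49 over members and -0.53 over all genes. In mouse 1, 22 were lower (30.2% of all genes) and 2 higher (8.52%), with medians of -0.90 and -0.43. Members are well expressed. Among the 7210 genes averaging at least 10 TPM, 47.5% were lower and 11% higher in mouse 2, and 41.7% lower and 11.7% higher in mouse 1, so the 44% of members in mouse 1 lay near that background. Of the members, 37 of 50 (74%) were below 0 in both mice, beside 50.5% of all genes and 57.6% of those averaging at least 10 TPM. In both mice 18 (36%) were lower by 1 or more, beside 19.3% of all genes and 27.6% of those averaging at least 10 TPM. The number of detected genes was then removed by a linear fit over all cells of a mouse. That number differed by state, so the fit can also remove part of the state differences, here and in each state comparison below. After the fit the median over members was -0.12 in mouse 2 and -0.073 in mouse 1, against 0.028 and -0.067 over all genes. Then 11 of 50 members were lower by 1 or more in mouse 2, beside 17.7% of all genes. In mouse 1, 8 of 50 were, beside 14.9% of all genes. The authors' RPKM table, where 79.8% of member values lay at the gene's lowest value, gave medians of -0.00495 and -0.017.

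Ranked by the smaller of their 2 differences, the members furthest below the rest in both mice were Eif1ax, Eif2a, Eif3e, Eif5 and Eif3i. Eif2a encodes an alternative carrier of initiator tRNA that is distinct from the eIF2 alpha subunit. It had 0, 0 and 32.8 TPM as lowest, median and highest values in H2-Aa-high cells, against 0, 8.22 and 384 TPM in rest cells of mouse 2, and was detected in 6 of 20 against 3 of 6 cells. In mouse 1 it reached 1 TPM in 0 of 14 H2-Aa-high cells, which allows up to 23.2% by the exact interval, against 11 of 20 rest cells, with a highest value of 0.28 TPM, against 385 TPM in the rest. Its differences were -2.26 in mouse 2 and -3.89 in mouse 1, although the ranges overlapped at 0 in both.

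Eif3e, an eIF3 subunit also known as Int6, was undetected in some H2-Aa-high cells and high in others. In mouse 2 its lowest, median and highest values were 0, 469 and 3530 TPM in H2-Aa-high cells, against 162, 658 and 1014 TPM in the rest, and the means were almost alike at 650 and 659 TPM. The log2 difference was -2.26, with 16 of 20 H2-Aa-high and 6 of 6 rest cells detected, and it was 0.15 with detected-gene number removed. In mouse 1 the values were 0.54, 476 and 1930 TPM, against 443, 1014 and 2860 TPM in the rest, a difference of -2.11, and here the mean was lower as well, at 617 against 1204 TPM.

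Eif1ax, one of the eIF1A genes, was detected in 11 of 20 H2-Aa-high and 5 of 6 rest cells of mouse 2, a difference of -3.22, and in 3 of 14 and 14 of 20 cells of mouse 1, a difference of -4.33. Eif5, the GTPase-activating protein of eIF2, differed by -4.22 and -2.09 and Eif3i by -1.97 and -2.02 in mouse 2 and mouse 1. With detected-gene number removed Eif3i was at 0.83 in mouse 2. Eif2ak1, the heme-regulated eIF2 alpha kinase, was the 1 member higher by 1 or more in both mice (2%, beside 4.11% of all genes), with 1.26 and 1.15. It averaged 48.6 TPM in H2-Aa-high cells, against 0.0767 TPM in the rest of mouse 2, and 96.8 against 23.6 TPM in mouse 1, and it was detected in 4 of 20 against 0 of 6 cells of mouse 2 and in 4 of 14 against 5 of 20 cells of mouse 1. Cycling markers differed with this state: all 6 were lower by 1 or more in H2-Aa-high cells of both mice, and their summed TPM ranged between 0 and 2053 in H2-Aa-high cells and 146 and 2768 in rest cells of mouse 2, and between 0.26 and 1255 and between 5.36 and 2901 in mouse 1. Of the 5 stem and early progenitor markers, 4 were lower by 1 or more in mouse 2 and 5 in mouse 1. The part of these lists in the result was not tested.

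S100a8-high cells of mouse 2 had the lowest levels, and eIF3 was low throughout. Of 50 members, 40 were lower than in the rest by 1 or more (36.1% of all genes were, and 45.6% of those averaging at least 10 TPM) and 0 were higher (10.3% and 12.7%). The median difference was -2.06 over members, against -0.40 over all genes. All 13 eIF3 genes were lower by 1 or more, with a median of -3.01 and a range of -4.98 to -1.28. The neighbouring machinery was lower too: 81 of 82 cytosolic ribosomal protein genes, with a median of -3.31, and 28 of 47 proteasome subunit genes, with a median of -1.37. The comparison has 10 cells against 6 of a single mouse, and 10 genes took a median of 54.8% of the TPM of these cells. After the 100 most abundant genes were left out the median over members was -2.01, with 36 of 50 lower by 1 or more, beside 34.2% of all genes. After removal of detected-gene number it was -0.89, with 24 of 50 lower, beside 23.5% of all genes. The RPKM table gave a median of -0.027. Other marker lists differed in the same comparison: 5 of 5 stem and early progenitor markers were lower by 1 or more, with a median of -4.53, and 3 of 6 cycling markers were higher and 1 lower, with a median of 1.36. Their part in the result was not tested.

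Eif3e showed the pattern at a high level. It had 0, 37.5 and 684 TPM as lowest, median and highest values in S100a8-high cells, against 162, 658 and 1014 TPM in the rest, a difference of -4.98. The ranges overlapped, and 6 of 10 S100a8-high cells reached 1 TPM. Eif4a2 had 0, 8.82 and 141 TPM, against 83.8, 352 and 1104 TPM in the rest, a difference of -4.62. Eif2b3, the gamma subunit of the exchange factor eIF2B, was at 0 in 10 of 10 S100a8-high cells, which allows detection in up to 30.8% of such cells by the exact interval, against 0, 206 and 788 TPM in the rest. Eif1a and Eif1ax differed by -5.53 and -4.19, each with detection in 3 of 10 cells, against 5 of 6 rest cells. The genes with values above 0 in this comparison were Eif2ak1 and Eif2ak3, at 0.65 and 0.83. Eif5a, by contrast, was in 10 of 10 S100a8-high cells, with 93.6, 583 and 2913 TPM, against 588, 1285 and 1907 TPM in the rest, a difference of -1.21. The single S100a8-high cell of mouse 1 had 1739 TPM of Eif5a and 364 TPM of Eif3e, and its neutrophil markers other than S100a8 summed to 327 TPM, below every S100a8-high cell of mouse 2.

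Members differed less between Mpo-high cells and the rest, and more of them were higher than lower. In mouse 2, 12 of 50 members were higher by 1 or more (21.3% of all genes) and 10 lower (15.5%), with a median of 0.47 over members and 0.11 over all genes. In mouse 1, 18 were higher (21.8%) and 1 lower (5.68%), with medians of 0.51 and 0.22. Among genes averaging at least 10 TPM, 28% were higher and 17.9% lower in mouse 2, and 29.4% higher and 7.63% lower in mouse 1, so the members' 24% and 36% lay on either side of the background. The rest of mouse 2 has 6 cells, and without the cell numbered 52 the count was 5 and the median -0.070. The share of all genes was not computed without that cell. With detected-gene number removed the counts higher were 5 of 50 in mouse 2 and 8 of 50 in mouse 1, beside 16.7% and 11% of all genes. The median in mouse 1 was then -0.11. Cycling markers were higher by 1 or more for 3 of 6 in mouse 2, with 1 lower, and for 4 of 6 in mouse 1. The erythroid markers summed to between 0 and 1067 TPM in Mpo-high cells and 1.19 and 1388 TPM in the rest of mouse 2, and to between 0 and 1111 and between 0 and 7883 TPM in mouse 1. The part of either list in the result was not tested.

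In both mice 7 of 50 members (14%) were higher by 1 or more, beside 7.57% of all genes and 11.1% of those averaging at least 10 TPM. They were Eif6, Eif4a3, Eif4ebp1, Eif3b, Eif2b1, Eif3d and Eif4h, the last pair named after their values were seen. Eif4a3 had 2.18, 338 and 891 TPM as lowest, median and highest values in Mpo-high cells, against 0, 81.8 and 499 TPM in rest cells of mouse 2, a difference of 3.83. In mouse 1 it had 0, 199 and 643 TPM, against 0, 71.1 and 836 TPM, a difference of 1.62, and the ranges overlapped in both mice. With detected-gene number removed it was at -0.26 in mouse 1. Eif6, which keeps the large ribosomal subunit from joining early, had medians of 72.6 against 11.2 TPM in mouse 2 and 66.5 against 0.685 TPM in mouse 1, with differences of 1.73 and 2.14. Eif4ebp1, a cap-binding inhibitor that mTOR controls, had medians of 102 against 60.2 TPM and 35.1 against 0 TPM, with differences of 1.59 and 1.5. Its mean, though, was 98.1 TPM in Mpo-high cells, against 128 TPM in the rest of mouse 2. Eif3b and Eif2b1 differed by 1.07 and 1.06 in mouse 2 and 1.1 and 1.51 in mouse 1, and the mean of Eif3b was also lower in Mpo-high cells of mouse 2, at 105 against 137 TPM.

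The eIF2B genes, whose complex recharges eIF2 with GTP, were all higher by 1 or more in Mpo-high cells of mouse 1. So were 21.8% of all genes and 29.4% of those averaging at least 10 TPM. Detection ran from 5 of 13 Mpo-high cells for Eif2b5 to 8 of 13 for Eif2b3 and Eif2b4. In rest cells it ran from 3 of 20 for Eif2b3 and Eif2b5 to 6 of 20 for Eif2b1 and Eif2b2. Mpo-high cells had a median of 4463 genes detected, against 3587.5 in the rest. The differences were 1.22 for Eif2b2, 1.26 for Eif2b5, 1.51 for Eif2b1, 2.03 for Eif2b4 and 3.01 for Eif2b3. In mouse 2, 1 of 5 was higher by 1 or more and 1 lower, from -2.22 for Eif2b3 to 1.06 for Eif2b1. The start codon selection gene Eif1a was at 3.03 in mouse 1 and -0.44 in mouse 2, and Eif5b, of subunit joining, at 1.74 and 0.64.

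**Figure D5:**
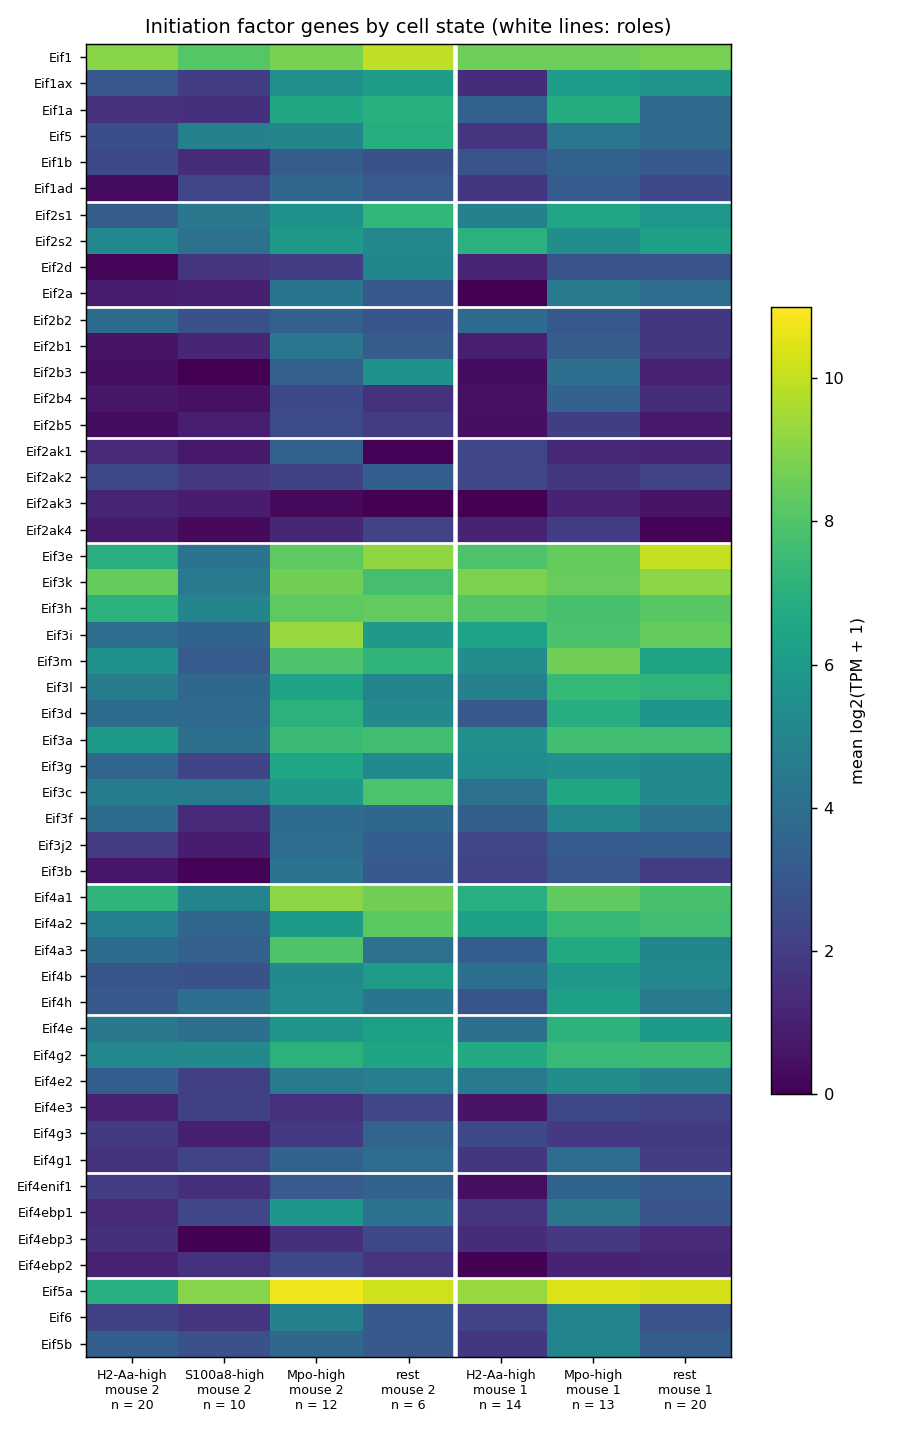
Mean log2(TPM + 1) of the 50 initiation factor genes (rows, divided by role) in the cells of each state of mouse 2 and mouse 1 (columns), without the single S100a8-high cell of mouse 1. In S100a8-high cells of mouse 2, 13 of 13 eIF3 genes are lower than in the rest by 1 or more, and Eif1 stays above 8 on this scale in all 7 columns.

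Between the mice, initiation factor genes were on balance lower in mouse 2. With all cells, 13 of 50 members were lower in mouse 2 by 1 or more (11.6% of all genes, and 17.6% of those averaging at least 10 TPM) and 0 were higher (1.59% and 2.37%). The median difference was -0.53 over members and -0.20 over all genes. The mice differed in their states, and S100a8-high cells were nearly all from mouse 2. All 5 stem and early progenitor markers were lower in mouse 2 by 1 or more, and 6 of 6 neutrophil and 6 of 7 dendritic markers were higher; their part in the result was not tested. Without the S100a8-high cells 8 of 50 members were lower and the median was -0.24, and the share of all genes was not computed there. Within H2-Aa-high cells the median was -0.11, within Mpo-high cells -0.17 and within the rest 0.33, so the direction of the median was not the same in every state. In the RPKM table the median was -0.018.

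The 5 members with the lowest differences were Eif3i, Eif3e, Eif4a2, Eif3l and Eif4g2. Eif3i had 0, 183 and 2335 TPM as lowest, median and highest values in mouse 2, against 0, 444 and 1699 TPM in mouse 1, and was detected in 35 and 44 of 48 cells. Its difference was -2.21, but within Mpo-high cells it was 1.46. Eif3e had 0, 478 and 3530 TPM in mouse 2, against 0, 774 and 2860 TPM in mouse 1, with detection in 40 and 46 cells and a difference of -1.99. The ranges overlapped for both subunits. Eif3l had a median of 60.7 TPM in mouse 2, against 310 TPM in mouse 1, and a difference of -1.56, while its mean was higher in mouse 2, at 411 against 330 TPM, with 1 cell of mouse 2 at 9841 TPM. Eif4a2 differed by -1.90 over all cells and by 0.62 within the rest. Eif4g2 differed by -1.47, and its means were 132 TPM in mouse 2 and 210 TPM in mouse 1. At the other end were Eif5 with 0.84, Eif4ebp2 with 0.72, Eif2b2 with 0.61, Eif1 with 0.25 and Eif2ak3 with 0.19. By role, eIF3 had a median of -0.87, with 5 of 13 lower by 1 or more. The ternary complex group had -1.02, with 2 of 4, which were the eIF2 subunit genes Eif2s1 (-1.19) and Eif2s2 (-1.20). The eIF2B genes and the eIF2 alpha kinases had 0.010 and 0.12, with 0 of 5 and 0 of 4.

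Other genes of the pathway were read from a list of 37 genes outside the members, of which 35 averaged at least 1 TPM. Between the mice 7 of the 35 (20%) were lower in mouse 2 by 1 or more, beside 11.6% of all genes and 17.6% of those averaging at least 10 TPM. In the list 0 were higher, and the median was -0.45. Paip2, an inhibitor of the poly(A)-binding protein, had 333 TPM on average in mouse 2 and 608 TPM in mouse 1, with a difference of -2.29. Atf4, the transcription factor of the integrated stress response that eIF2 alpha phosphorylation induces by translation, had 94.3 and 186 TPM, with a difference of -1.85. The elongation factor genes Eef1g, Eef1d and Eef1b2, which form the eEF1B exchange complex, differed by -1.51, -1.40 and -1.14. Mcts1, a partner in ribosome recycling, differed by -1.24 although its mean was higher in mouse 2, at 223 against 205 TPM, and Mknk2, a kinase of eIF4E, by -1.19. In S100a8-high cells 20 of the 35 (57.1%) were lower by 1 or more and 2 higher, beside 36.1% of all genes and 45.6% of those averaging at least 10 TPM lower. In H2-Aa-high cells 14 (40%) were lower in each mouse, with 3 and 1 higher. Beside them, 38% of all genes and 47.5% of those averaging at least 10 TPM were lower in mouse 2, and 30.2% and 41.7% in mouse 1. In Mpo-high cells of mouse 2, 11 (31.4%) were higher and 5 lower, beside 21.3% and 28% higher. In those of mouse 1, 7 (20%) were higher and 2 lower, beside 21.8% and 29.4%. Apart from the S100a8-high cells, these counts lay near or below the share of genes averaging at least 10 TPM. The list was kept at 1 TPM. Against all genes its shares were higher between the mice, in H2-Aa-high cells of both mice and in Mpo-high cells of mouse 2. In H2-Aa-high cells of mouse 2 the margin was small, at 40% against 38%. Of the 9 stress response genes among the 35, 2 (22.2%) were higher and 1 lower by 1 or more in Mpo-high cells of each mouse, which is near the 21.3% and 21.8% of all genes that were higher.

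Correlation among members across cells was weak. After a linear fit on detected-gene number, the mean pairwise Spearman correlation over 48 cells was 0.028 in mouse 2 and 0.023 in mouse 1 among the 49 members averaging at least 10 TPM, and 0.032 and 0.019 among all such genes. Without H2-Aa-high cells it was 0.038 among members and 0.015 among all genes over 28 cells of mouse 2, and 0.028 and 0.0090 over 34 cells of mouse 1. Over all 48 cells it was 0.10 and 0.029 among the 13 eIF3 genes, and among 82 ribosomal protein genes 0.51 and 0.24. The values share libraries and are descriptions. The 50 members were all protein-coding and lay on 18 chromosomes, with Eif1ax on the X. In GENCODE annotation on GRCm38, Eif5a spans 69916714 to 69921958 on chromosome 11, minus strand, and Eif3e spans 43250058 to 43282719 on chromosome 15, minus strand. Values per gene do not separate exons or untranslated regions.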

How the data were processed

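Each GEO sample was 1 cell, and each table column was matched to a sample by its cell name, with 0 columns unmatched. The authors made the TPM values with RSEM, per the name of the deposited table, which held 23955 gene symbols, and TPM summed to the same total in each cell. The RPKM table deposited by the authors, made with AltAnalyze per its name, held 9310 Ensembl genes, was used as an alternative for the 46 members matched by symbol, and lay at the gene's lowest value for 79.8% of member values. The submitters' processing notes name Bowtie2, TopHat2 and RSEM and the builds mm10 and mm9, with neither version nor role. Cells were scored by eye on the chip per the labels' protocols, and no doublet caller was run. Replicates here are cells of 1 animal, so no test was made.

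Computed here were differences of mean log2(TPM + 1), a call at 1 or more, states at 1000 TPM, detection at 1 TPM, exact 95% intervals and shares (Python 3.11.15, numpy 2.4.6, pandas 2.3.3, scipy 1.17.1). States with fewer than 5 cells got values only. Members, lists and roles were chosen with earlier results of these data known. Genes were named by rule: the 10 highest means, the 5 highest and 5 lowest mouse differences, up to 5 per state with the largest difference of 1 sign in both mice, paralog families, each among members averaging at least 10 TPM where ranked, the 3 genes on each side of the limit, and pathway genes past 1. Near-copies such as Eif3j1 with Eif3j2, Eif1a with Eif1ax, and processed pseudogenes of Eif4a1 or Eif5a may share reads, so their values are uncertain. Depth per cell is unknown, since TPM keeps none, and the number of detected genes stands beside the values.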

Additional observations from a re-analysis of the deposited data

Results flagged for a closer look

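In Mpo-high cells compared with the rest, 3 members differed in opposite directions in the 2 mice, by 1 or more each way; the difference between the mice was not tested. These 3 of 50 (6%) were lower in mouse 2 and higher in mouse 1, as were 3.19% of all genes, and among genes averaging at least 10 TPM the shares were 2 of 49 members (4.08%) and 4.55% of all genes. Eif3c, an eIF3 subunit, differed by -1.93 in mouse 2 and by 1.31 in mouse 1, with medians of 106 TPM in Mpo-high and 227 TPM in rest cells of mouse 2, and of 116 and 64.2 TPM in mouse 1. Eif2b3, a subunit of the exchange factor eIF2B, differed by -2.22 in mouse 2 and by 3.01 in mouse 1, and was detected in 7 of 12 Mpo-high and 4 of 6 rest cells of mouse 2, and in 8 of 13 and 3 of 20 cells of mouse 1. Eif2ak4, the amino acid sensing eIF2 alpha kinase GCN2, differed by -1.09 in mouse 2 and by 1.87 in mouse 1, and was detected in 3 of 12 Mpo-high and 3 of 6 rest cells of mouse 2, and in 5 of 13 and 1 of 20 cells of mouse 1. The rest group of mouse 2 has 6 cells.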

How the results depend on the processing

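No paired analysis was possible because the cells of the mice share no replicate numbers. Medians were taken as moved when they shifted by 0.5 or more, and counts when they changed by more than 1.5 times. Of the mouse difference, the 13 members lower in mouse 2 became 5 with a pseudocount of 10, 6 with detected-gene number removed, 8 when centred on all genes, 6 within Mpo-high cells, 6 within the rest (median 0.33) and 8 without S100a8-high cells. With detected-gene number removed, 5.45% of all genes were lower in mouse 2. Of the alternative counts in this section, only those with detected-gene number removed have a share of all genes under the same setting. The others, and those of the RPKM values, stand without it and cannot show whether members moved more than all genes. For H2-Aa-high cells of mouse 2 the median was -0.83 with a pseudocount of 10, -2.19 with 0.1, -0.12 (11 members lower) with detected-gene number removed and -0.95 when centred. For those of mouse 1 the count was 10 with a pseudocount of 10, 8 with detected-gene number removed (median -0.073) and 14 when centred, and the median was -1.61 against Mpo-high cells in place of the rest. For S100a8-high cells the median was -1.25 with a pseudocount of 10, -2.91 with 0.1 and -0.89 (24 lower) with detected-gene number removed. For Mpo-high cells the count higher in mouse 2 was 6 with a pseudocount of 10 and 5 with detected-gene number removed, and in mouse 1 7 and 8, the last with a median of -0.11. Leaving out each rest cell of mouse 2 in turn, chosen after seeing the data as was the comparison with Mpo-high cells, gave medians of -1.95 to -1.27 and counts of 30 to 36 for H2-Aa-high, -2.62 to -1.86 and 36 to 44 for S100a8-high, and -0.070 to 0.39 and 5 to 18 for Mpo-high cells.

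The RPKM table gave medians near 0: -0.018 for the mouse difference (1 lower), -0.00495 and -0.017 for H2-Aa-high cells of mouse 2 and mouse 1 (6 and 3 lower), -0.027 for S100a8-high cells (2 lower), and in Mpo-high cells 1 higher in mouse 2, and 3 higher in mouse 1 with a median of 0. There, 79.8% of member values lay at the gene's lowest value, against 28.7% of the same TPM values at 0, although 94 of 96 cells matched their own column best. Signs turned there for Eif3i (0.042) and Eif3l (0.10) between the mice, for Eif3e (0.029), Eif5 (0.033) and Eif3i (0.13) in H2-Aa-high cells of mouse 2, and for Eif1ax (0.086) in those of mouse 1. Eif1a was at 0 in S100a8-high cells, Eif6 at 0 in Mpo-high cells of both mice and Eif4ebp1 at 0 in mouse 1. In Mpo-high cells Eif4a3 turned to -0.056 in mouse 2 and -0.094 in mouse 1, Eif3b to -0.17 and -0.025, and Eif2b1 to -0.041 in mouse 1. In TPM, signs turned for Eif3i within Mpo-high cells of both mice (1.46), Eif4a2 within the rest (0.62), Eif3e (0.15) and Eif3i (0.83) in H2-Aa-high cells of mouse 2 and Eif4a3 (-0.26) in Mpo-high cells of mouse 1 with detected-gene number removed, and in Mpo-high cells of mouse 1 for Eif4ebp1 (-0.061) at a state threshold of 500 TPM and Eif4a3 (-0.047) at 2000 TPM. The causes were not tested. Over these alternatives 170 values that answer a comparison were taken as unmoved and 40 as moved. They include the values with a rest cell left out. Shares of paralogs and of detected cells are also among them, judged by 1 SD over cells instead of the limits above. Where a main median was under 1 in size, a turned sign was not counted apart, so these counts do not measure how stable a direction was.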
